A study of Homo sapiens with 12 samples.

Results

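Telomerase and shelterin act at chromosome ends. The genes described here include 4 that encode parts of the telomerase holoenzyme, TERT, TERC, DKC1 and WRAP53. The others are the 6 that encode the subunits of shelterin, TERF1, TERF2, TERF2IP, TINF2, ACD and POT1. Together these are 10 of the 62663 genes of GENCODE release 44 on hg38. Every region of H2A.Z or acetylated H2A.Z (H2A.Zac) that lay over the gene body or within 10 kb to each side was taken as belonging to a gene's locus, whatever its class. These loci hold 87 of the 158028 listed regions, 42 of H2A.Z and 45 of H2A.Zac, and each of the 10 loci holds at least 1.

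The regions come from ChIP-seq in K562, a human chronic myeloid leukemia cell line. In all cells endogenous EP400, the scaffold subunit of the TIP60 complex, was homozygously fused to a degradation tag (dTAG), and all cells received 500 nM dTAGV-1 for 24 h to remove it. The WT line was complemented with full-length EP400 from the AAVS1 locus and the ΔTRRAP line with EP400 lacking the SANT and HD domains, which hold the TRRAP subunit. Inputs, H2A.Z and H2A.Zac each had 2 biological replicates per line, 12 libraries in 6 groups. Each line was 1 clone, so genotype and clone cannot be told apart. The labels call the cell type lymphoblast. An H2A.Zac region of the WT line lay within 1 kb of the transcription start site (TSS) of 5 of 6 erythroid and hematopoietic genes used by K562 (TAL1, LMO2, KLF1, NFE2 and TFRC, but not GATA1). The same held for the T cell genes CD3E, CD3D and CD2, whereas the B cell genes PAX5 and MS4A1 had none.

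The authors merged the replicates and sorted regions into 3 classes with MACS2 bdgdiff. Regions higher in WT are called lost in ΔTRRAP, regions higher in ΔTRRAP are called gained, and the rest are unchanged. A changed region has a log10 likelihood ratio (LR) between the lines of at least 3, and an unchanged region one below it. The LR measures the evidence for a change and cannot be read as a fold change. The lists carry no value per replicate and no read counts. No spread between replicates, no fold change and no test can therefore be given, the depth is unknown here, and all comparisons below are descriptions. Classes are assigned along the signal, so 1 peak can be split into several regions and regions of different classes can overlap.

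Human chromosome ends carry TTAGGG repeats that shorten with each round of replication. Telomerase, a reverse transcriptase (TERT) with its own template RNA (TERC), adds repeats, and shelterin binds them, shields the ends from DNA repair and controls the access of telomerase. TERT is off in most somatic cells and on in most cancers, whereas TERC and shelterin genes are widely expressed. H2A.Z is a histone variant found at nucleosomes flanking active TSSs, and its acetylation, for which TIP60 is a main enzyme, goes along with transcription. The study describes TERT as regulated by MYC, one of the factors that bind TRRAP, and asks how losing TRRAP from TIP60 redistributes H2A.Z and H2A.Zac.

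The promoters of 3 members are shown because their TSSs stood in 3 different states: TERT with H2A.Zac lost, DKC1 with H2A.Z gained and no H2A.Zac region, and POT1 with both marks gained over the TSS and H2A.Zac also lost upstream. The stretches are from RefSeq on GRCh38.p14, written 5′ to 3′ on the strand of the gene, at chr5:1295189-1295318 (minus strand, starting 250 bases upstream of the TERT TSS), chrX:154762614-154762741 (plus strand, starting 250 bases upstream for DKC1) and chr7:124929984-124930075 (minus strand, starting 250 bases upstream for POT1). Capitals mark CACGTG, the E-box to which MYC can bind, and the GC box GGGCGG or its reverse complement CCGCCC, to which Sp1 can bind.
TERT: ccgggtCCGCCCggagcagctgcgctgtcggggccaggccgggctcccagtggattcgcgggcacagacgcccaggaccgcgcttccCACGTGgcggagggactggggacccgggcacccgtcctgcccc
DKC1: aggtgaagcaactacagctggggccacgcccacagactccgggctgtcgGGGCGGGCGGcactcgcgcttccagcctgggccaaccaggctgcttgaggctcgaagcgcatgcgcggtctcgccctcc
POT1: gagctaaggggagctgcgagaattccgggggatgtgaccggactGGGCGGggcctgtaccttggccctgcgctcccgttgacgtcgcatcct
The TERT stretch lies wholly inside the lost H2A.Zac region. The DKC1 stretch lies in no listed region. The POT1 stretch lies in the gained H2A.Zac region except for its first base, and its first bases also lie in the adjoining unchanged H2A.Zac region. Its later part, with the marked GC box, also lies in the gained H2A.Z region over the TSS.

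Of the 10 members, 7 have a RefSeq promoter at the TSS used here, namely TERT, DKC1, WRAP53, TERF2IP, TINF2, ACD and POT1. Both strands of the 250 bases upstream were searched. CACGTG was found in 6.34% of all 35116 promoters in the table and in 1 of the 7 members, TERT, where it lies 163 to 158 bases upstream of the TSS (chr5:1295226-1295231) within the lost H2A.Zac region. GGGCGG or CCGCCC was found in 42.6% of all promoters and in 6 of the 7 members, all but WRAP53. GGAA or TTCC, the core bound by ETS factors, was present in all 7, but also in 92.7% of all promoters. The members' promoters were GC-rich, with a median of 65.2% against 58% of all promoters, and TERT was at 78.8%. These matches describe letters in a window, not bound sites.

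At the TSSs themselves, the members did not move in 1 direction. Within 1 kb of the TSS of the canonical transcript, H2A.Zac was gained at 5 of the 10 members (TERC, TERF2, TERF2IP, TINF2 and POT1) and lost at 3 (TERT, TERF1 and POT1). Among all 20033 protein-coding genes, 36.6% had a gained and 16.7% a lost H2A.Zac region there. POT1 alone had both, as did 4.42% of protein-coding genes. WRAP53 and ACD had unchanged H2A.Zac regions only, a state of 15.1% of protein-coding genes, and DKC1 had no H2A.Zac region within 1 kb, as was the case for 36.0%. TERC is a noncoding RNA gene, so it is not among the genes behind these percentages.

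Within the same 1 kb, changed H2A.Z regions were gains. H2A.Z was gained at 4 members (TERC, DKC1, TERF2IP and POT1), against 13.9% of protein-coding genes, and lost at 0, against 6.53%. Another 5 members (WRAP53, TERF1, TERF2, TINF2 and ACD) had only unchanged H2A.Z regions within 1 kb, against 42.2% of protein-coding genes. TERT was the 1 member with no H2A.Z region within 1 kb, against 37.8%. With a window of 2 kb to each side, 3 members had a lost H2A.Z region (DKC1, TERF2 and POT1, at 1.65, 1.66 and 1.54 kb upstream). For protein-coding genes this share was taken at 1 kb (6.53%) and over whole loci (27.3%). It was not taken at 2 kb, so the count at 2 kb is not read further. Within 1 kb, both marks were gained at 3 members (TERC, TERF2IP and POT1), against 11.0% of protein-coding genes, and both were lost at 0, against 5.27%. The pattern of TERT, a lost H2A.Zac region without any H2A.Z region, was found at 1.53% of protein-coding TSSs, and that of DKC1, a gained H2A.Z region without any H2A.Zac region, at 0.694%. With 10 genes, a share moves by 10 percentage points with each gene, and these counts are too small to set the members apart from other genes.

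**Figure D1:**
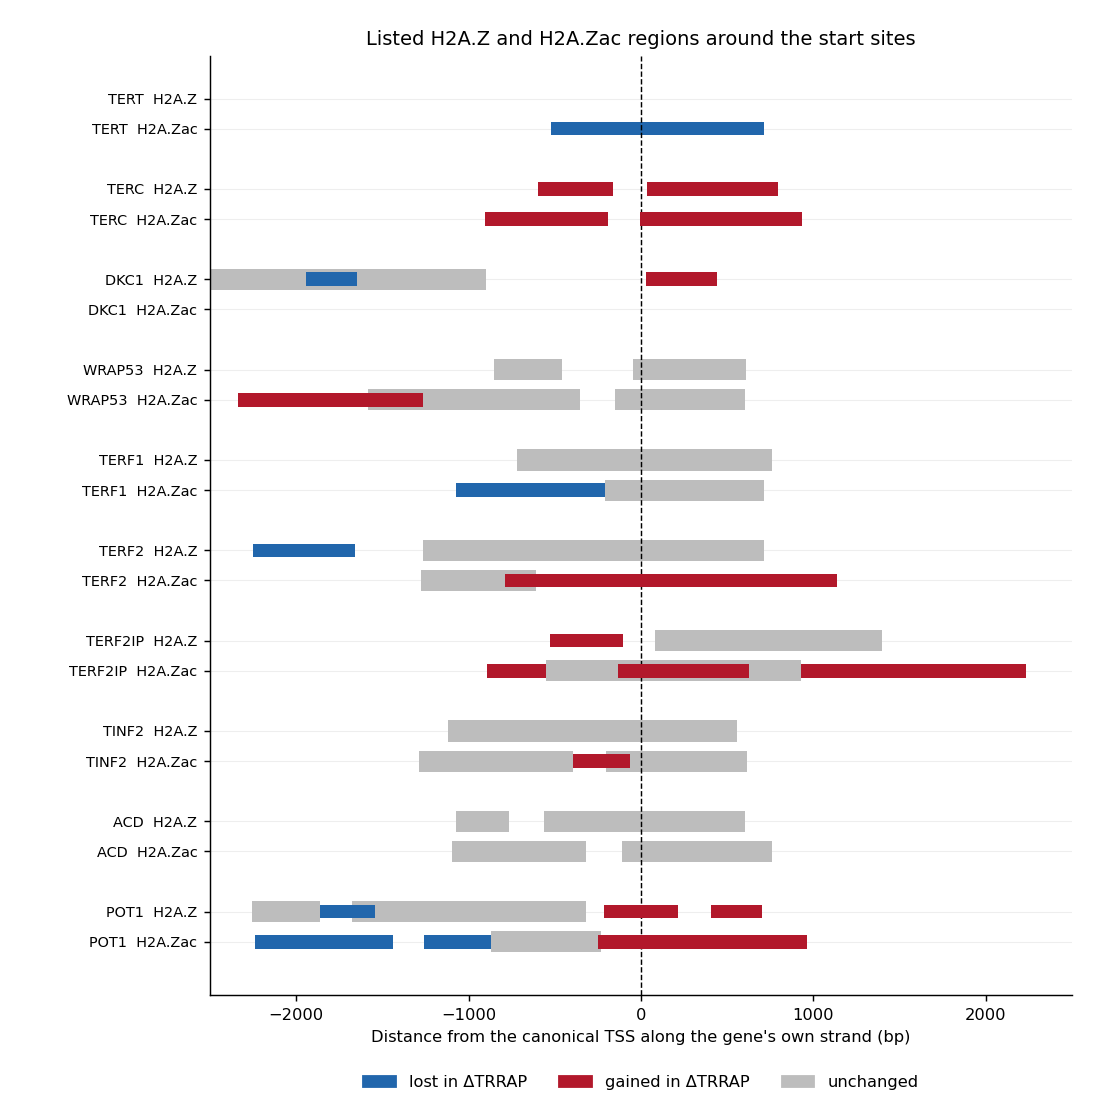
Listed H2A.Z and H2A.Zac regions near the TSS of each of the 10 genes. The x axis is the distance in bp from the canonical TSS along the gene's own strand (upstream is negative), each bar is 1 region drawn to scale, and its color gives its class in ΔTRRAP (blue lost, red gained, gray unchanged). TERT shows 1 blue bar over its TSS and nothing in H2A.Z, TERC shows only red bars, and ACD shows only gray ones.

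**Figure D2:**
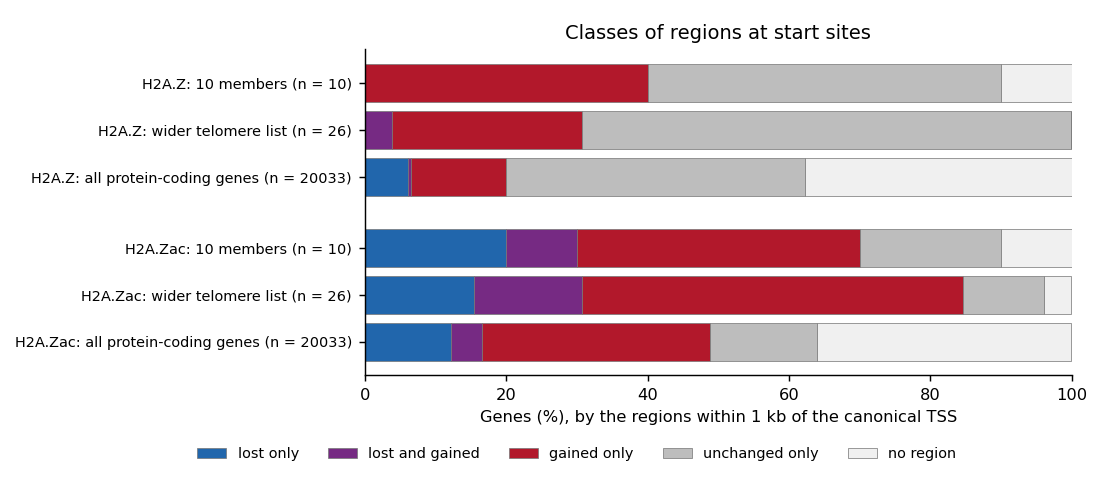
Share of genes in percent (x axis) by the classes of the regions within 1 kb of the TSS, for the 10 members, the wider list of 26 telomere genes and all 20033 protein-coding genes. Among the members, H2A.Z has no blue segment, and H2A.Zac holds lost, gained and unchanged TSSs side by side.

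TERT encodes the catalytic subunit, a reverse transcriptase (ENSG00000164362, chr5:1253147-1295068, minus strand, 16 exons). Its whole locus of 41.9 kb plus flanks holds 1 region, the H2A.Zac region at chr5:1294353-1295591, which was lost. It is 1239 bp wide, runs from -523 to 715 bp relative to the TSS, covers exon 1 and part of exon 2, and has an LR of 10.8. Of the 5349 lost H2A.Zac regions within 1 kb of the TSS of any gene, 71.4% had a lower LR (median 7.6) and 81.8% were narrower (median 654 bp). The loss at TERT was thus above the middle of its class but not at its end.

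The lists hold H2A.Z only far from TERT, which does not show that H2A.Z was absent from it. The closest one on the chromosome was unchanged and lay 49.4 kb from the TSS, the closest lost one 91.4 kb away with an LR of 3.84, and the closest gained one 5220 kb away. For H2A.Zac, the next unchanged region was 49.2 kb, the next lost one 71.5 kb and the next gained one 290 kb from the TSS. Protein-coding genes with the same pattern over the whole locus (1 lost H2A.Zac region spanning the TSS, no other H2A.Zac region and no H2A.Z region) numbered 22 with TERT, or 0.11% of 20033. Their LRs ran from 3.92 to 82.6 with a median of 9.3, and 6 genes were above TERT. Closest to TERT by LR were CDK3 (10.5), RHOJ (10.4) and ANKRD2 (11.2).

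TERC encodes the RNA that carries the repeat template (ENSG00000270141, chr3:169764520-169765060, minus strand, 1 exon of 0.541 kb). The highest LRs of changed regions at any member were found here, and they were gains. A gained H2A.Zac region at chr3:169764127-169765065 covers the whole gene and the TSS (939 bp, LR 14.9), and a second one lies upstream at chr3:169765252-169765966 (715 bp, LR 12.5). Gained H2A.Z regions lie on both, at chr3:169764268-169765022 (755 bp, LR 10.6) and chr3:169765222-169765658 (437 bp, LR 9.92). No unchanged region of either mark was within 1 kb of the TSS.

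The gains at TERC ranked high in their class. Of the 10012 gained H2A.Zac regions within 1 kb of any TSS, 94.3% and 91.2% had lower LRs than the regions at and upstream of TERC, and of the 3584 gained H2A.Z regions 96.2% and 95.2% did. Between these pairs of regions, a gap just upstream of the TSS held no region of either mark. The locus also reaches the start of MYNN, which encodes a zinc finger protein and starts 8.34 kb from TERC. From 6.53 kb upstream of the TERC TSS onward, 4 gained H2A.Z regions of 328, 332, 698 and 348 bp (LR 9.92, 5.73, 4.94 and 11.1) alternated with 3 unchanged ones of 316 to 508 bp. Of these, 3 gained and 2 unchanged regions lay within 1 kb of the MYNN TSS, as did a gained H2A.Zac region of 1804 bp with an LR of 7.05. The 1 loss in the locus was an H2A.Zac region of 441 bp with an LR of 5.62, 6.97 kb downstream of the TERC TSS.

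DKC1 encodes dyskerin, the pseudouridine synthase that binds the H/ACA domain of TERC and stabilizes it (ENSG00000130826, chrX:154762742-154777689, plus strand, 15 exons). A gained H2A.Z region in exon 1 starts 32 bp downstream of the TSS (chrX:154762896-154763304, 409 bp, LR 5.44). Upstream, an unchanged H2A.Z region of 2285 bp, the widest at any of the 10 loci, ends 900 bp from the TSS and contains a lost stretch of 294 bp with an LR of 4.82. The only H2A.Zac region of the locus was unchanged and lay 9.75 kb upstream. H2A.Z at DKC1 therefore held gained, lost and unchanged stretches within 4 kb, without an H2A.Zac region at any of them.

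WRAP53 encodes TCAB1, which brings telomerase to Cajal bodies (ENSG00000141499, chr17:7686071-7703502, plus strand, 11 exons). Its TSS lies in an unchanged H2A.Zac region of 752 bp and an unchanged H2A.Z region of 656 bp. Both gained H2A.Zac regions of the locus lie further upstream, 1.27 kb (1072 bp, LR 9.11) and 2.61 kb (329 bp, LR 8.69) from the canonical WRAP53 TSS. No H2A.Z region lay on either. The first lies within the gene body, which starts upstream of the canonical TSS. Taken at any annotated TSS, or within 2 kb of the canonical one, 6 members in place of 5 had a gained H2A.Zac region, WRAP53 being the one added. At the far end of the locus, past the start of EFNB3, 1 H2A.Z region of 672 bp was lost with an LR of 4.48.

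**Figure D3:**
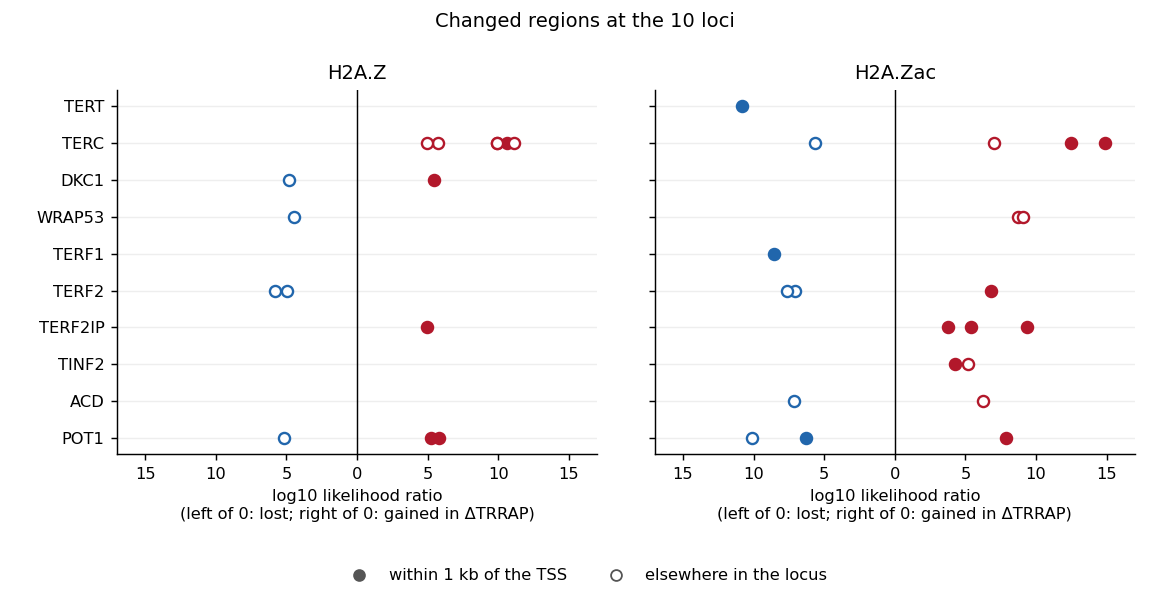
Changed H2A.Z (left) and H2A.Zac (right) regions of the 10 loci. Each point is 1 region, its distance from 0 on the x axis is the log10 likelihood ratio (left of 0 lost, right of 0 gained in ΔTRRAP), and filled points lie within 1 kb of the gene's TSS. TERC reaches furthest to the right in H2A.Zac (14.9) and TERT furthest to the left (10.8).

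TERF1 encodes TRF1, which binds double-stranded telomeric repeats and limits telomere length (ENSG00000147601, chr8:73008856-73048123, plus strand, 10 exons). Its TSS lies in an unchanged H2A.Zac region of 923 bp and an unchanged H2A.Z region of 1482 bp. A lost H2A.Zac region of 865 bp (LR 8.59) abuts the unchanged one and ends 209 bp upstream of the TSS. The loss thus covered the upstream flank and not the TSS. Of the lost H2A.Zac regions within 1 kb of any TSS, 58.3% had a lower LR.

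TERF2 encodes TRF2, which binds the same repeats and prevents chromosome ends from fusing (ENSG00000132604, chr16:69355567-69408571, minus strand, 10 exons). A gained H2A.Zac region of 1927 bp (chr16:69384870-69386796, LR 6.81) spans its TSS and exons 1 and 2. It is the widest H2A.Zac region of the 10 loci, and 94.4% of gained H2A.Zac regions near a TSS were narrower, yet the H2A.Z region beneath it (chr16:69385296-69387270, 1975 bp) was unchanged. Transcripts of TERF2 start up to 24.5 kb away from the canonical TSS, and the part of the gene body upstream of that TSS carried the losses of the locus. These are H2A.Z regions of 594 bp (LR 4.99) and 472 bp (LR 5.84) at 1.66 and 12.1 kb upstream, and H2A.Zac regions of 364 bp (LR 7.06) and 509 bp (LR 7.66) at 9.87 and 13.3 kb. Gain at the TSS and losses further upstream were therefore found in the same gene.

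TERF2IP encodes RAP1, which is held at telomeres by TRF2 (ENSG00000166848, chr16:75647773-75761872, plus strand, 3 exons). It starts 108 bp from KARS1, the lysyl-tRNA synthetase gene on the opposite strand, so regions here cannot be assigned to either gene. On the KARS1 side, H2A.Z was gained at chr16:75647243-75647669 (427 bp, LR 4.97) and H2A.Zac at chr16:75646878-75647223 (346 bp, LR 5.41). On the TERF2IP side, a gained H2A.Zac region at chr16:75648700-75650004 reaches into the first intron (1305 bp, LR 9.33). H2A.Z on that side was unchanged, in a region of 1316 bp (LR 0.349) that starts 84 bp downstream of the TSS. Over the TSS the lists hold both an unchanged H2A.Zac region of 1483 bp, with an LR of 1.51, and a gained one of 759 bp inside it, with an LR of 3.74. The latter is close to the cutoff, and only 4.92% of gained H2A.Zac regions near a TSS had a lower LR.

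TINF2 encodes TIN2, the hub that links TRF1 and TRF2 to TPP1 (ENSG00000092330, chr14:24238286-24242663, minus strand, 9 exons). Unchanged regions of H2A.Zac (817 bp) and H2A.Z (1678 bp) lie over its TSS. A gained H2A.Zac region of 330 bp (LR 4.28), which ends 66 bp upstream of the TSS, overlaps the first and abuts the next unchanged H2A.Zac region of 893 bp. Of gained H2A.Zac regions near a TSS, 14.2% had a lower LR. The other change in the locus was a gained H2A.Zac region of 510 bp (LR 5.15) at NEDD8 and GMPR2, which start 10.3 and 9.69 kb away.

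ACD encodes TPP1, which recruits telomerase through its contact with TERT (ENSG00000102977, chr16:67657512-67660810, minus strand, 12 exons). Like WRAP53, it had no changed region of either mark within 1 kb of its canonical TSS. Unchanged H2A.Zac (865 bp) and H2A.Z (1164 bp) regions cover the TSS, and unchanged regions also lie at PARD6A, a polarity gene that starts 0.7 kb away. Changes in the locus were limited to the shared start of ENKD1 and C16orf86, 6.49 and 6.55 kb away. A gained H2A.Zac region of 452 bp (LR 6.27) and a lost one of 1222 bp (LR 7.13) lie there on the opposite sides of an unchanged one.

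POT1 encodes the protein that binds the single-stranded telomeric overhang together with TPP1 (ENSG00000128513, chr7:124822386-124929983, minus strand, 19 exons). A gained H2A.Zac region spans its TSS and exons 1 and 2 (chr7:124928864-124930074, 1211 bp, LR 7.85), and H2A.Z regions gained at the TSS (chr7:124929613-124930038, 426 bp, LR 5.26) and in the first intron (chr7:124929124-124929421, 298 bp, LR 5.78) lie on it. Upstream of these, an unchanged H2A.Zac region of 636 bp separates the gain from H2A.Zac losses at chr7:124930693-124931081 (389 bp, LR 6.31, 868 bp upstream of the TSS) and chr7:124931263-124932065 (803 bp, LR 10.1, 1.44 kb upstream). A lost H2A.Z region of 320 bp (LR 5.15) lies inside the latter. Within less than 4 kb, both marks were thus lost upstream and gained over the TSS and the start of the gene.

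Over whole loci, changed regions were common both at the members and at other genes. A lost H2A.Z region was found in 4 of the 10 loci (DKC1, WRAP53, TERF2 and POT1), against 27.3% of protein-coding loci, and a gained one in 4 (TERC, DKC1, TERF2IP and POT1), against 26.6%. A lost H2A.Zac region was found in 6 (TERT, TERC, TERF1, TERF2, ACD and POT1), against 49.8%, and a gained one in 7 (TERC, WRAP53, TERF2, TERF2IP, TINF2, ACD and POT1), against 59.4%. The number of regions differed widely between the loci. TERC and its flanks held 16 regions and TERF2 15, whereas TERF1 held 3 and TERT 1.

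Of the 42 H2A.Z regions of the loci, 5 were lost, 10 gained and 27 unchanged, so that 35.7% changed against 34.0% of all 63442. Of the 45 H2A.Zac regions, 8 were lost, 13 gained and 24 unchanged, so that 46.7% changed against 52.1% of all 94586. Gains made up 66.7% of the changed H2A.Z regions (Wilson 95% confidence interval 41.7 to 84.8%) against 41.6% over the genome. They made up 61.9% of the changed H2A.Zac regions (40.9 to 79.2%) against 50.4%. The genome-wide value lies inside the interval for H2A.Zac and just below it for H2A.Z. These intervals cover counting error only and treat regions as independent, which neighboring regions are not. For H2A.Z, 6 of the 10 gained regions are in the TERC locus, and without that locus the gained share was 44.4% (4 of 9).

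Changed regions of the members were of ordinary size. Gained H2A.Z regions had a median width of 417.5 bp (449 bp over the genome) and a median LR of 5.76 (5.48), and lost ones 472 bp (525 bp) and 4.99 (5.95). Gained H2A.Zac regions had a median width of 759 bp (664 bp) and a median LR of 7.05 (6.87), and lost ones 656 bp (702 bp) and 7.39 (8.27). The highest LR of a changed region was 11.1 for H2A.Z and 14.9 for H2A.Zac at the members, and 57.0 and 188 over the genome.

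The marks lay together at most, but not all, of these loci. H2A.Zac regions covered 25% or more of 32 of the 42 H2A.Z regions (76.2%, Wilson interval 61.5 to 86.5%), against 82.8% of all H2A.Z regions. In the other direction this held for 34 of 45 H2A.Zac regions (75.6%, 61.3 to 85.8%), against 60.5%. Overlapping changed regions of the marks had the same direction at the members, as they did nearly everywhere: over the genome, at most 0.0781% of the changed regions of a mark and class lay on regions of the other mark changed the opposite way. Of the 10 gained H2A.Z regions at the members, 7 lay on gained H2A.Zac regions, against 65.8% over the genome, and of the 5 lost ones 1 lay on a lost H2A.Zac region, at POT1, against 65.9%. Of the 13 gained H2A.Zac regions, 4 lay on gained and 7 on unchanged H2A.Z regions, against 18.7 and 45.9% over the genome. Of the 8 lost H2A.Zac regions, 1 lay on lost and 4 on unchanged H2A.Z regions, against 28.6 and 36.4%. A changed H2A.Zac region over an unchanged H2A.Z region, as at TERF1, TERF2 and TINF2, was thus common over the genome too.

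The balance of lost and gained regions differed widely between the fixed 5-Mb windows of the chromosomes in which the members lie. These windows are not centered on the genes, and some members, such as POT1, lie close to a window's edge. The window of TERT, at the end of chromosome 5, held 0 gained of 30 changed H2A.Z regions and 6 of 50 for H2A.Zac (12.0%). The window of TERC leaned to gains, with 33 of 50 changed regions for H2A.Z (66.0%) and 36 of 58 for H2A.Zac (62.1%). The window of TERF2IP was high for H2A.Z, with 15 gained of 18 (83.3%), and that of POT1 for H2A.Zac, with 36 of 52 (69.2%). For DKC1, WRAP53, TERF1, TINF2 and the window shared by TERF2 and ACD, gained shares were between 33.3 and 50.7% for H2A.Z and between 49.0 and 61.0% for H2A.Zac. The change at the TERT TSS was thus of the same direction as most changes over the surrounding 5 Mb.

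**Figure D4:**
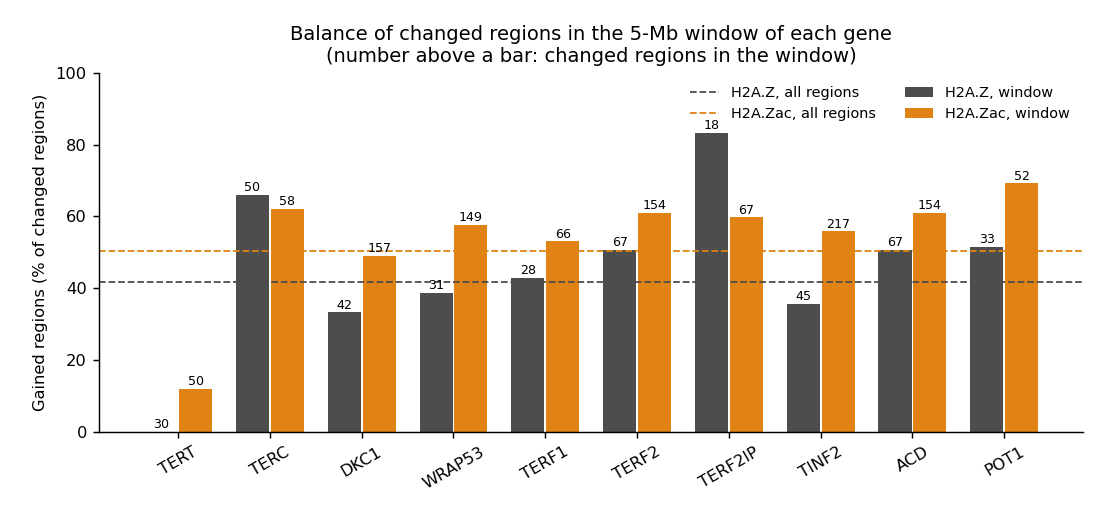
Gained regions in percent of changed regions (y axis) in the 5-Mb window that holds the TSS of each gene, for H2A.Z (dark gray) and H2A.Zac (orange). Numbers over the bars count the changed regions, dashed lines are the shares over the genome (41.6 and 50.4%), and TERF2 and ACD share a window. The TERT window stands at 0 and 12.0%, below all others.

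Beyond the member genes, 26 further genes of telomere biology were taken as a list. At their TSSs, H2A.Zac was gained at 18 and lost at 8, with both at 4 (NOP10, RUVBL1, ZCCHC8 and TNKS), against 36.6%, 16.7% and 4.42% of protein-coding genes. Only unchanged H2A.Zac regions were found at 3 (STN1, RUVBL2 and ZBTB48) and none at SHQ1. H2A.Z was gained at 8, against 13.9% of protein-coding genes, and lost at 1, against 6.53%, which was NOP10 and had both. The other 18 had only unchanged H2A.Z regions, against 42.2%. Every gene of the list had an H2A.Z region within 1 kb of its TSS, whereas 37.8% of protein-coding genes had none, so a higher share of changed TSSs in this list is not read as particular to it.

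By role, the H/ACA proteins, which bind TERC and other H/ACA RNAs with dyskerin, held the highest LR of the list. At NOP10, the highest LR of a lost region was 29.1 for H2A.Zac and 7.97 for H2A.Z, beside gained regions with 7.63 and 6.58. At NHP2, H2A.Zac was lost (LR 9.1), and at GAR1 both marks were gained (LR 3.62 for H2A.Zac and 5.58 for H2A.Z). The assembly factor NAF1 gained H2A.Zac (LR 4.57), and SHQ1, a chaperone of dyskerin, gained H2A.Z (LR 4.39) with no H2A.Zac region, as DKC1 itself did. RUVBL1, an ATPase of the TIP60 complex that also helps to assemble H/ACA particles, had a lost (LR 6.68) and a gained H2A.Zac region (LR 5.4), whereas its partner RUVBL2 had unchanged regions only.

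Among the nucleases, polymerase and adaptor that trim or degrade TERC precursors, TOE1 (H2A.Zac LR 10.3, H2A.Z LR 5.24), PARN (8.74 and 3.35) and DIS3 (5.59 and 5.72) gained both marks. TENT4B, which adds tails that target RNAs for decay, lost H2A.Zac (LR 11.9), and the adaptor ZCCHC8 had a lost (LR 10.1) and a gained region (LR 3.48). Of the CST complex, which ends telomerase action and fills in the complementary strand, CTC1 gained both marks (H2A.Zac LR 5.87, H2A.Z LR 5.16), TEN1 gained H2A.Zac (LR 5.15) and STN1 was unchanged. Of the 5 regulators of shelterin and telomerase, 0 had a changed H2A.Z region, which is little to read beside the 13.9% of protein-coding genes with a gained and 6.53% with a lost one. Of these, H2A.Zac was gained at TNKS2 (LR 4.34) and TEP1 (LR 4.17), lost at PINX1 (LR 4.8), an inhibitor of telomerase, and both lost (LR 8.49) and gained (LR 6.52) at TNKS, the poly(ADP-ribose) polymerase that releases TRF1 from telomeres.

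In the group of telomere replication, end processing and chromatin, 5 of 6 gained H2A.Zac, against 36.6% of protein-coding genes. All 6 had an H2A.Zac region within 1 kb of the TSS, whereas 36.0% of protein-coding genes had none. The higher share is therefore not read as particular to the group. The gains were at the nuclease gene DCLRE1B (LR 10.6), the helicase genes WRN (LR 8.82) and BLM (LR 5.83), and ATRX (LR 4.95) and DAXX (LR 5.16), which together deposit histone H3.3 at telomeres. The helicase gene RTEL1 lost H2A.Zac (LR 7.35). BLM was the 1 gene of this group with a changed H2A.Z region, a gain with an LR of 4.2.

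**Figure D5:**
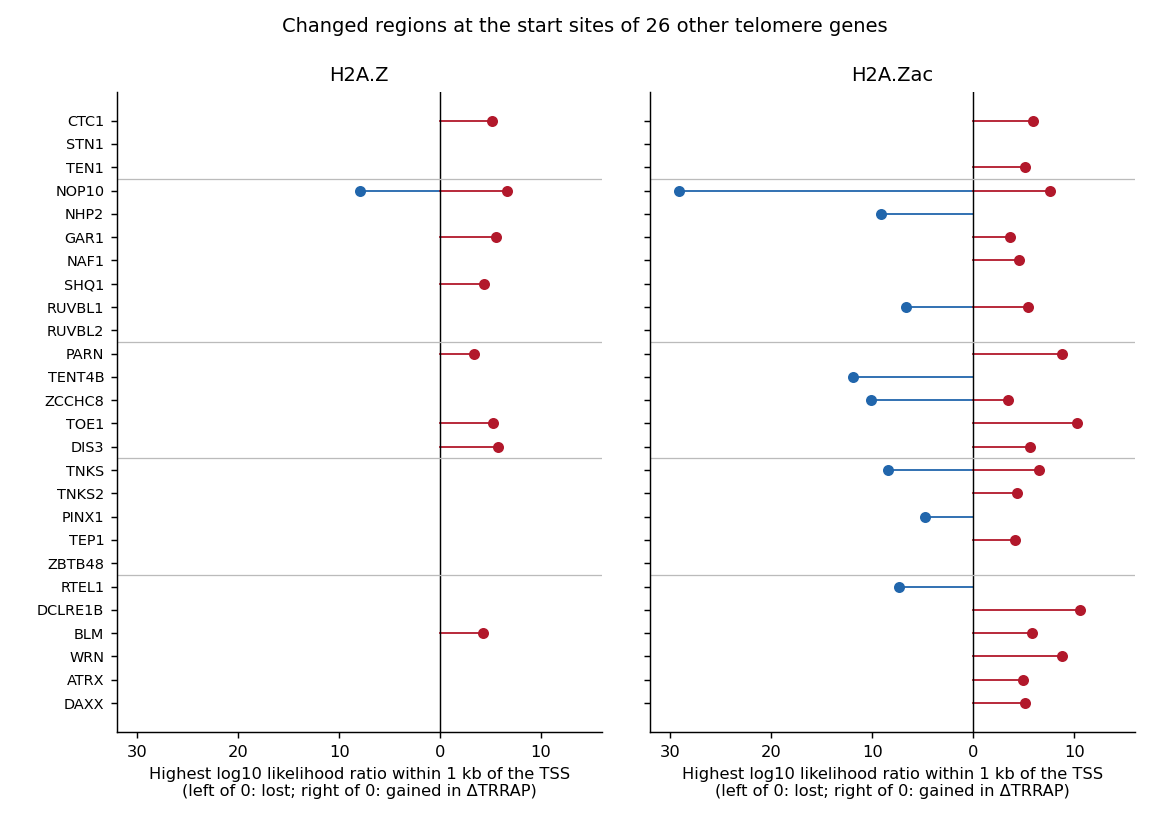
Highest log10 likelihood ratio (x axis; left of 0 lost, right of 0 gained in ΔTRRAP) of the changed H2A.Z (left) and H2A.Zac (right) regions within 1 kb of the TSS of 26 further telomere genes, with lines between the 5 roles. A gene without a point had no changed region of that mark. NOP10 stands out with a lost H2A.Zac region at 29.1.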

How the data were processed

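ChIP-seq of H2A.Z and H2A.Zac had 2 biological replicates per line and mark, with inputs. Per the submitters' processing notes and the study's methods, the authors used Bowtie2 2.4.5 with hg38, MACS2 2.2.7.1, deepTools 3.5.1 and bedtools 2.30.0. They merged replicates, compared lines with MACS2 bdgdiff after scaling to equal effective depth, and kept regions with at least 25% of their length in peaks that passed an IDR of 0.05. Each region in the 6 deposited lists has a score, the log10 likelihood ratio of this comparison, for which the authors set a cutoff of 3. It was used to describe and rank regions, since the lists carry no other measurement. Merging and filtering cannot be undone here, so replicate spread, depth and signal height are unknown.

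Loci were gene bodies of GENCODE release 44, a later release than the authors', plus 10 kb to each side. TSSs were those of canonical transcripts, with a window of 1 kb to each side. Overlap required 25% of a region. Shares of regions have Wilson 95% intervals, which cover counting error only. Motif searches used RefSeq promoters of GRCh38.p14, the same assembly as hg38. The members, the 26 further telomere genes, the marker genes and the settings were chosen with earlier results of these data known. All members were named, and of the further genes those with a changed region at the TSS, with counts for the rest. Neighboring genes were named where a listed region lay within 1 kb of their TSS or at the end of the locus. Some items, a neighboring gene and a marker gene among them, are not reported here. Genes like TERT were ranked by the difference in likelihood ratio, and 3 were named. Overlap and count steps were tested on simulated regions and against bedtools. Alternatives varied the flank, TSS window, likelihood ratio cutoff, minimum width, merging and overlap. Python 3.11.15, numpy 2.4.6, pandas 2.3.3, scipy 1.17.1, matplotlib 3.10.9 and bedtools 2.31.1 were used. Expression, signal tracks and inputs were not analysed here.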

Additional observations from a re-analysis of the deposited data

How the results depend on the processing

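Of 46 alternative values, 40 did not turn the direction and stayed within the Wilson interval of the share, or within 1.5 times the count, given above. The intervals of the gained shares are wide, 41.7 to 84.8% for H2A.Z and 40.9 to 79.2% for H2A.Zac. An even split was counted as not turned. The count of 40 therefore says little about stability. Leaving out TERC, an alternative chosen after seeing the data, lowered the gained share of changed H2A.Z regions to 44.4% (4 of 9), below an even split, since 6 of the 10 gains are in that locus. For H2A.Zac the same step gave 58.8%. At a likelihood ratio cutoff of 10, the gained share of H2A.Z was 100% (2 of 2 regions, both in the TERC locus), and lost H2A.Zac, gained H2A.Zac and gained H2A.Z were each left at the TSS of 1 member. These fall because few regions pass the cutoff. With a TSS window of 2 kb to each side, 3 members had a lost H2A.Z region near the TSS in place of 0. The share of protein-coding genes was not taken at that window, so this move cannot be set against other genes. Over all alternatives the gained share ran from 50% to 71.1% for H2A.Zac, and the share of H2A.Z regions on H2A.Zac regions from 72.0 to 82.5%. No paired analysis was possible because the deposited lists merge the replicates and come from no test across samples, and for the same reason no replicate could be left out. The depth of the libraries is unknown, so a TSS without a listed region cannot be told from one below detection.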
